A study of Mus musculus with 8 samples.

Results

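The Chd genes encode 9 chromatin remodelling enzymes, Chd1 to Chd9, and their chromatin accessibility was examined in granule neuron progenitors (GNPs), the cells that give rise to the granule neurons of the cerebellum. The measure was ATAC-seq, in which the Tn5 transposase cuts and tags open DNA. All peaks overlapping a Chd gene body, the 5 kb upstream of it or the 1 kb downstream were taken as members. They numbered 87 of 152984 peaks in the wild-type (WT) list, 66 of 106974 in the heterozygous (het) list and 101 of 174407 in the mutant list. The genes themselves were 9 of 32106 annotated protein-coding and long non-coding genes.

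GNPs were freshly isolated from cerebella of P7 mice. The labels give the strain as C56Bl6/J, while the study's methods give C57BL/6N. The labels name 3 WT, 3 mutant and 2 het libraries by Chd7 genotype. Per the study, het cells carry Atoh1-Cre::Chd7 f/+ and homozygous mutant cells Atoh1-Cre::Chd7 f/f, while its WT controls are given as Chd7 f/f. Atoh1-Cre acts in the granule lineage from the rhombic lip. Per the study, Chd7 protein remained in posterior lobes of the mutant cerebellum, for which it names weaker recombination by this Cre as the probable reason, so part of the mutant cells may still hold Chd7. The sex of pups was not distinguished, and WT and mutant replicates are described as technical. The authors called the peaks of a genotype on its libraries together. The values below therefore have no replicate error, no test between genotypes was possible, and intervals cover counting error only. Start sites of all 6 GNP markers examined (Atoh1, Pax6, Zic1, Neurod1, Gli1 and Barhl1) held a peak in all 3 lists. Of 7 markers of other cerebellar cells, 5 had a start-site peak in WT, 4 in het and 5 in mutant, with Pcp2 and Cx3cr1 at 0 peaks in every list. A start-site peak marks open DNA and not expression, and the part of other cells in the results was not tested.

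CHD proteins join a pair of chromodomains to a Snf2-type ATPase motor that slides or exchanges nucleosomes. They fall into 3 subfamilies. Chd1 and Chd2 form subfamily I and act along transcribed genes. Chd3, Chd4 and Chd5 form subfamily II and are alternative motors of the NuRD deacetylase complex, with Chd5 largely restricted to neurons. Chd6, Chd7, Chd8 and Chd9 form subfamily III, in which human CHD7 is mutated in CHARGE syndrome and CHD8 in autism.

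The relation of Chd7 to its paralogues was first set out from the encoded proteins, as translated from the transcript with the longest coding sequence of each gene. Chd7 was the longest, with 2986 residues, followed by Chd9 with 2885, Chd6 with 2711 and Chd8 with 2582. In global alignments Chd7 was identical to Chd6 at 55.4% of aligned residues, to Chd9 at 55.4% and to Chd8 at 54.9%. As a share of the shorter protein the order was reversed, with 53.3% for Chd8, 52.8% for Chd9 and 48.8% for Chd6. Within subfamily III the most alike pair was Chd8 and Chd9, at 56.9% of aligned residues. Against the other subfamilies the identity of Chd7 lay between 32.7% with Chd5 and 36.5% with Chd1. The most alike pairs of the family were elsewhere. Chd3 and Chd5 were identical at 74.4% of aligned residues, Chd4 and Chd5 at 73.6%, Chd3 and Chd4 at 73.1%, and Chd1 and Chd2 at 63.6%.

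Sequences at annotated start sites are shown first, since they give the open DNA near a start of each gene. Transcription was not measured, so the starts in use were not determined. For each gene the WT peak of highest pileup within 1 kb of the start of any of its coding transcripts was chosen, and 50 bases on either side of its summit were read from mm10 (GRCm38) on the strand of the gene. Capitals mark matches on either strand to the following motifs. They are the GC box GGGCGG, the box named CCAAT, the E-box CACGTG bound by Myc and related factors, a further E-box CAGCTG known from neural factors, the E-box variant CAGATG, the core CGGAAG bound by ETS factors, the part GCATGCGC of the motif of NRF1, the response element TGACGTCA for cyclic AMP, the TATA box TATAAA and the octamer motif ATGCAAAT bound by POU factors. No motif contains another. The windows of Chd1 and Chd4 reach into untranslated exons and are not printed.
Chd2 (chr7:73537839-73537939, minus strand): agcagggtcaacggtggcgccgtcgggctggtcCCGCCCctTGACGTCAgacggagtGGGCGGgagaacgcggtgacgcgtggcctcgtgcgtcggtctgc
Chd3 (chr11:69365058-69365158, minus strand): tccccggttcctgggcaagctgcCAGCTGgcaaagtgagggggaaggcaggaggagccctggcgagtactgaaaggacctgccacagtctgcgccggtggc
Chd5 (chr4:152338994-152339094, plus strand): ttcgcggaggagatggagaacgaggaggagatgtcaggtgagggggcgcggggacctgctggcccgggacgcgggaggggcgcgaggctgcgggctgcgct
Chd6 (chr2:161109158-161109258, minus strand): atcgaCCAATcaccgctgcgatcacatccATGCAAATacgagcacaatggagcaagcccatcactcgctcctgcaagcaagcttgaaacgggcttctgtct
Chd7 (chr4:8750930-8751030, plus strand): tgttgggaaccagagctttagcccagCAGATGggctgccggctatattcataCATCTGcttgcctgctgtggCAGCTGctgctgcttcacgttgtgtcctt
Chd8 (chr14:52257788-52257888, minus strand): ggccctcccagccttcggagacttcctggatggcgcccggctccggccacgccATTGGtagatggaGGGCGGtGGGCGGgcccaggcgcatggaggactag
Chd9 (chr8:90908400-90908500, plus strand): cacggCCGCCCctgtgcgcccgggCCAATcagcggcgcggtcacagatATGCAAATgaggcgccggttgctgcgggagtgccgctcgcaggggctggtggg

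GGGCGG was present in the windows of Chd2, Chd4, Chd8 and Chd9, while 31.9% of 22024 WT peaks at start sites genome-wide held it in the same window. CCAAT was present in Chd6, Chd8 and Chd9 against 19.0% genome-wide. The E-box CAGCTG was present in Chd3 and Chd7 against 9.81%, and the variant CAGATG in Chd7 alone among the 9 against 7.39%. TGACGTCA, the cyclic AMP response element, was present in Chd2 against 1.46%. The Myc-type E-box, the ETS core, the NRF1 part and the TATA box had no match in these 9 windows, against 3.52%, 11.3%, 1.47% and 1.28% genome-wide. The windows of Chd6 and Chd9 were alike beyond single motifs. Both held CCAAT followed on the same strand by ATGCAAAT, with 19 bases between them. This search was chosen after the sequences were seen. ATGCAAAT occurred in 120 start-site windows genome-wide (0.545%), CCAAT with ATGCAAAT in 58, and the 19-base spacing in 2, which were those of Chd6 and Chd9. In the alignment that lines up these motifs, the pair held the most alike stretch of 40 bases among the windows. It had 27 identical bases, against at most 24 for any other pair. The bases of both motifs are counted in it, so it is not a separate observation. The Chd9 window belongs to an internal start about 80 kb into the gene, with its summit 79615 bases from the first exon, and not to its first exon. Those of Chd2, Chd3 and Chd7 also belong to internal starts, with summits 3857, 4298 and 59615 bases from the first exon start.

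**Figure D1:**
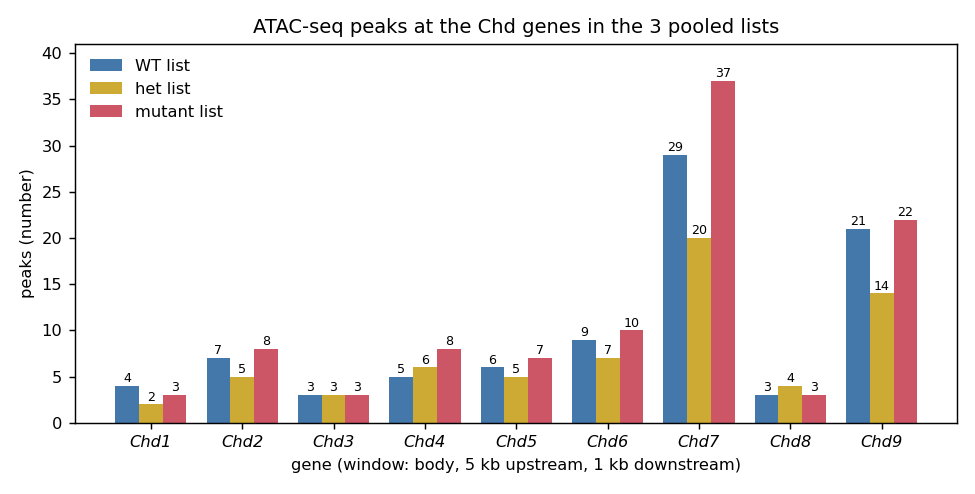
Number of ATAC-seq peaks (vertical axis) in the window of each Chd gene (horizontal axis) in the pooled WT, het and mutant lists. Chd7 held the most peaks in every list, with 29, 20 and 37, followed by Chd9 with 21, 14 and 22.

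Peaks were unevenly spread over the family. The largest numbers of WT peaks were at Chd7 (plus strand of chromosome 4, 8690406 to 8867659, ENSMUSG00000041235.12), with 29 of the 87, and at Chd9 (plus strand of chromosome 8, 90828352 to 91054516, ENSMUSG00000056608.14), with 21. Per window length Chd7 held 1.58 WT peaks per 10 kb, more than 85.0% of 21938 protein-coding genes, whose median was 0.728. Among 750 genes with windows of like length the median was 14 peaks, and 28 genes held as many as Chd7 or more. Chd9, the longest of the family, held 0.905 peaks per 10 kb, and genes of like length had a median of 18. Chd6 (ENSMUSG00000057133.14, chromosome 2, 160946978 to 161109075, minus strand) is nearly as long as Chd7 but held 9 WT peaks, below the median of 12 for genes of its length. Of the remaining genes, Chd4 held 1.23 peaks per 10 kb, Chd5 1.04, Chd3 0.934, Chd2 0.578, Chd1 0.543 and Chd8 0.457. The bars of peaks per gene show that the order of Chd7 and Chd9 above the others was the same in all 3 lists.

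Most of the peaks lay inside the genes. By summit, 67 of the 87 WT peaks were intronic, 6 in coding exons, 3 in untranslated exons, 9 upstream and 2 downstream. In Chd7, 12 of 29 WT peaks were in intron 1, and in Chd9 12 of 21 were in intron 2. Some members overlap the start sites of neighbours, and their signal cannot be assigned to the Chd gene alone. The peak downstream of Chd4 is at the start of Nop2, that downstream of Chd8 at Supt16 and Gm26590, and that upstream of Chd2 at 1810026B05Rik. Start peaks of Chd6 and Chd2 are shared with Gm45447 and Gm44686, and a Chd9 peak in intron 2, 90849578 to 90849929, is at the start of Gm45641, which makes 6 WT peaks in all.

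In subfamily I, Chd1 (ENSMUSG00000023852.14, chromosome 17, 15704967 to 15772610, plus strand) had a single start-site peak. Its pileup, the number of extended tags at the summit, was 81 in WT and 88 in mutant. Scaled to the tags of each list, the mutant over WT ratio was 1.07 (95% CI 0.784 to 1.47). Its next peak, 1220 bases into the gene, went from 24 to 27, and the intron 2 peak from 30 to 40. All 3 shared Chd1 peaks were higher in mutant, each by less than its counting error, and over the whole genome 57.6% of 118098 shared WT peaks were higher in mutant. Chd2 (ENSMUSG00000078671.11, chromosome 7, 73426638 to 73541830, minus strand), which deposits histone variant H3.3 at active genes, had 2 start peaks. The higher was not at the first exon but 3857 bases downstream, with a pileup of 94 in WT and 89 in mutant (ratio 0.935, 0.692 to 1.26). The first-exon peak had 51 and 47 (ratio 0.910). Of 6 shared Chd2 peaks 5 were lower in mutant, and the furthest was the upstream peak at 73546601 to 73546933, with 22 in WT and 12 in mutant (ratio 0.539, 0.243 to 1.14). The WT summit of that peak, 73546659, lay outside the mutant peak at 73546784 to 73546911, so these heights are from different positions.

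In subfamily II, Chd3 (ENSMUSG00000018474.17, chromosome 11, 69343273 to 69369406, minus strand) showed no peak within 1 kb of its first exon in any of the 3 lists. Its start-site peak was at an internal start, 4298 bases into the gene, with a pileup of 38 in WT and 41 in mutant (ratio 1.07, 0.668 to 1.70). A second intron 1 peak went from 30 to 35, and the upstream peak at 69372067 to 69372353 from 23 to 13 (ratio 0.558, 0.260 to 1.15). Chd4 (ENSMUSG00000063870.12, chromosome 6, 125095981 to 125130591, plus strand), the main NuRD motor in progenitors, had a pair of start peaks with pileups of 36 and 36 in WT and 32 and 38 in mutant. Their ratios were 0.878 (0.528 to 1.45) and 1.04. Another 2 Chd4 peaks of the mutant list, at 125095286 to 125095553 and 125097390 to 125097540, lay within 300 bp of a WT peak without overlapping it. Chd5 (ENSMUSG00000005045.16, chromosome 4, 152338651 to 152390194, plus strand) had the weakest start sites of the family. The peak over the annotated start had a pileup of 17 in WT and 13 in mutant (ratio 0.755), and the peak chosen for its height, 393 bases into the gene, had 18 in WT and no overlapping mutant peak. It is 100 bases wide, a mutant peak lies within 300 bp, and a het peak overlaps it. Among the 5 shared Chd5 peaks 4 were lower in mutant, and the strongest mutant peak of the gene without a WT partner was in coding exon 9 (152360940 to 152361085, pileup 19).

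In subfamily III, Chd8 (ENSMUSG00000053754.14, chromosome 14, 52198151 to 52257780, minus strand) combined few peaks with high ones. Its first-exon peak reached a pileup of 94 in WT and 105 in mutant, with a fold enrichment over local background of 14.9 in WT, the highest of the family (ratio 1.10, 0.827 to 1.47). A second start 13224 bases into the gene had 64 and 71. All 3 Chd8 peaks of the WT list were kept in the other lists, and the mutant list added none. Chd6 had a start peak of 92 in WT and 96 in mutant (ratio 1.03, 0.766 to 1.39), and 6 of its 8 shared peaks were higher in mutant. Among these 8, the WT peaks at 160953302 to 160953478 and 160953610 to 160953724 had the same mutant partner, 160953396 to 160953765. Chd9 had start peaks at 3 places, the first exon with 47 in WT and 51 in mutant, intron 2 with 60 and 74 (ratio 1.22, 0.855 to 1.74) and intron 3 with 58 and 61. The 8 chosen start-site peaks with a mutant partner, those of all genes but Chd5, stayed within 1.5 times, and each counting interval included 1. The peak over the annotated Chd5 start was also within 1.5 times (0.755, 0.337 to 1.65). The median log2 ratio of these 8 was 0.07, against 0.06 (quartiles -0.06 and 0.20) over 20149 shared start-site peaks. The share of those 20149 past 1.5 times was not counted.

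**Figure D2:**
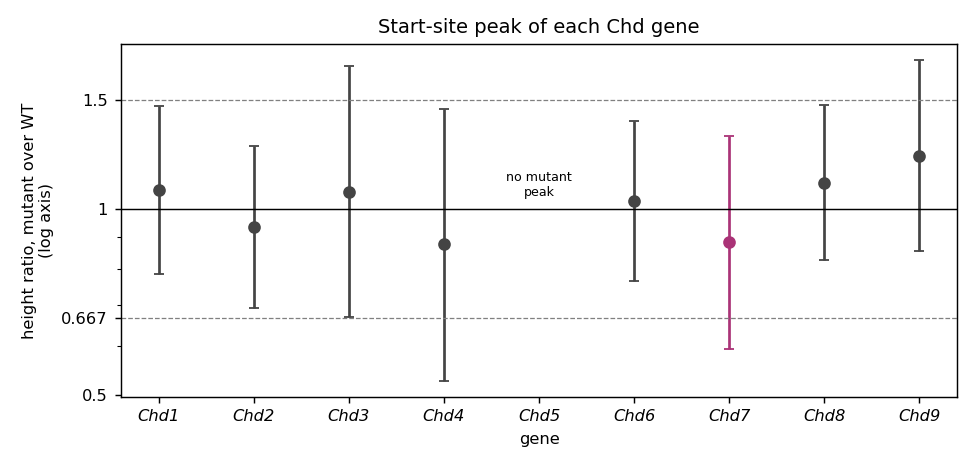
Ratio of peak height, scaled to tags, in the mutant over the WT list (vertical log axis) for the start-site peak of each Chd gene (horizontal axis). Points are ratios, bars are exact 95% counting intervals, and dashed lines mark 1.5 and 1/1.5. Ratios ran from 0.878 in Chd4 to 1.22 in Chd9, and the Chd5 peak had no overlapping mutant peak.

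Chd7, the targeted gene, was then followed along its length. The first exon lies within a group of peaks. The widest, 8689849 to 8690927, had a pileup of 40 in WT and 52 in mutant (ratio 1.28, 0.834 to 1.99), and peaks 252 and 703 bases into the gene went from 22 to 27 and from 24 to 30. A peak at an internal coding start in intron 1 was higher. It lay at 8750847 to 8751112, 59615 bases into the gene, with a pileup of 57 in WT and 51 in mutant (ratio 0.884, 0.594 to 1.31). The adjacent peak over coding exon 2, 8752016 to 8752237, had 22 and 21. The exons removed in the floxed allele are not given in the sources used here, so no peak could be used as a check of recombination. The tallest Chd7 peaks were in intron 23 (70 in WT and 71 in mutant), intron 3 (63 and 67) and the last coding exon, exon 38 (61 and 64). Each of these 3 had a het peak. They differed between WT and mutant by less than counting error.

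**Figure D3:**
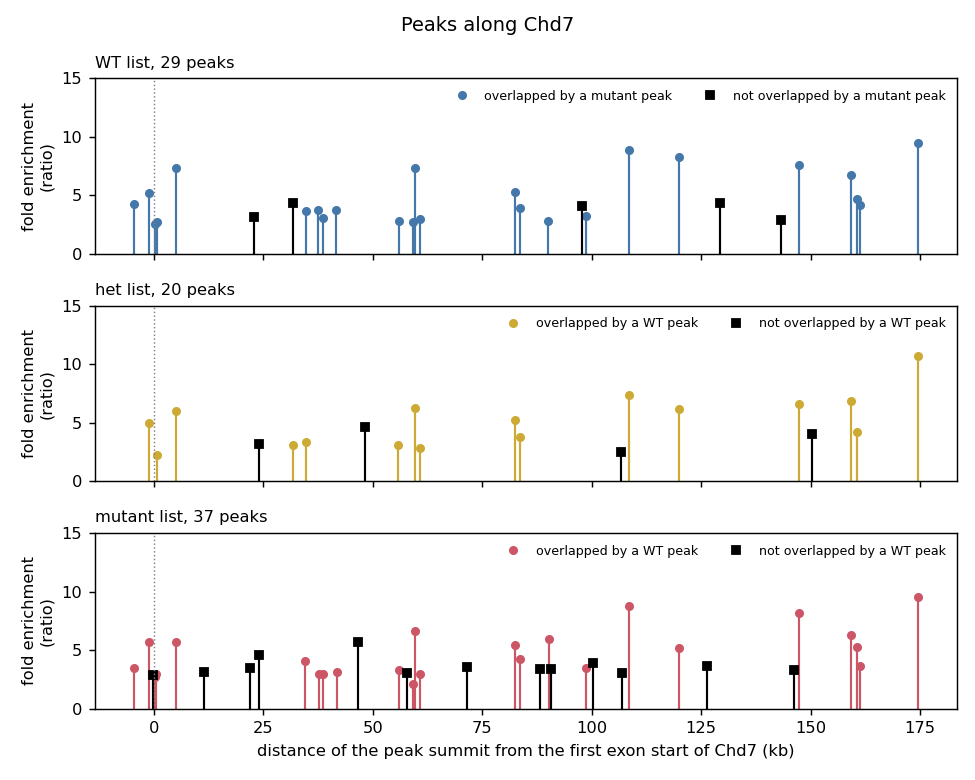
Peaks along Chd7 in the WT, het and mutant lists, placed by the distance of the summit from the first exon start (horizontal axis, kb), with stem height giving fold enrichment over local background (vertical axis, a ratio). Black squares have no overlapping peak in the compared list. The tallest stems recur in the 3 panels, and the black squares of the mutant panel reach at most a fold enrichment of 5.70.

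Of the shared peaks of the family, 2 had a counting interval that did not include 1, one in Chd7 and one in Chd9. The Chd7 peak, in intron 2 at 8781418 to 8781535, had a pileup of 11 in WT and 28 in mutant (ratio 2.51, 1.21 to 5.60), no het peak, and a WT fold enrichment of 2.85, the fifth lowest of the 29 WT peaks in the gene. The summit of its mutant partner, 8781539, lay outside the WT peak, so these heights are from different positions. The Chd9 peak, in intron 3 at 90934880 to 90935031, had 22 in WT and 10 in mutant (ratio 0.449, 0.190 to 0.988), and also no het peak. That is 1 interval above 1 and 1 below 1 in 76 shared peaks, and over all shared WT peaks 1.43% of intervals lay above 1 and 0.514% below. The furthest drop in Chd7 was in intron 6 at 8811096 to 8811398, from 31 to 19 (ratio 0.605, 0.323 to 1.11), where a het peak was present.

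Over all 76 shared WT peaks of the family the median log2 ratio of height was 0.07 (quartiles -0.11 and 0.25). Over all 118098 shared WT peaks it was 0.08 (quartiles -0.14 and 0.30). The median was 0.06 for the 24 shared peaks of Chd7 and 0.09 for the 52 of its paralogues. A height at least 1.5 times that of WT was found at 3 of the 76 (3.95%), against 8.37% of all shared peaks, and a height at least 1.5 times lower at 5 (6.58%), against 3.61%. The rises were in Chd6, Chd7 and Chd9 and the falls in Chd2, Chd3, Chd5, Chd7 and Chd9, 1 in each gene. At the median Chd7 pileup of 27.5, a counting interval reached 0.76 on the log2 scale to either side, so shifts smaller than this in a single peak were not detectable.

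**Figure D4:**
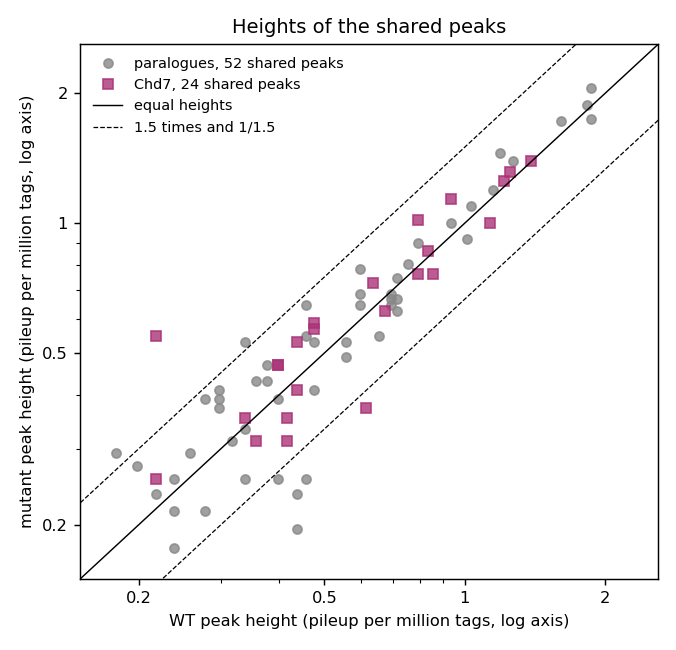
Peak height as pileup scaled to tags in the WT list (horizontal log axis) and of the overlapping mutant peak (vertical log axis) for the 76 shared peaks of the family. Chd7 peaks (24) and paralogue peaks (52) lie along the line of equal heights, with 3 points above the upper dashed line of 1.5 times and 5 below the lower one.

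The lists were next compared by presence. Of the 87 WT peaks 11 had no overlapping mutant peak (12.6%, Wilson 95% CI 7.21 to 21.2%), against 22.8% of all WT peaks. Of the 101 mutant peaks 24 had no overlapping WT peak (23.8%, 16.5 to 32.9%), against 30.7% of all mutant peaks. Chd7 made up 5 of the 11 and 13 of the 24. For the WT list the share was 17.2% in Chd7 (7.60 to 34.5%) and 10.3% in the paralogues (4.83 to 20.8%). For the mutant list it was 35.1% in Chd7 (21.8 to 51.2%) and 17.2% in the paralogues (9.88 to 28.2%). The intervals of Chd7 and its paralogues overlapped in both comparisons. They treat the peaks of a gene as independent, and overlap does not show equal shares, so a difference was not tested. Family peaks without a partner stood low in their lists. Their -log10 q had a median of 4.53 in WT and 4.22 in mutant, against 11.5 and 10.8 for shared ones. Over all peaks the contrast was alike, with 3.34 in WT and 3.81 in mutant against 9.21 and 10.5 for shared ones. Of 62 family WT peaks with a -log10 q of at least 5, the number without a mutant peak was 4 (6.45%, background 5.78%). Of 64 such family mutant peaks, 5 had no WT peak (7.81%, background 11.2%). In the mutant list these were 2 of 19 Chd7 peaks (10.5%) and 3 of 45 paralogue peaks (6.67%), and in the WT list 2 of 17 (11.8%) and 2 of 45 (4.44%). Set against het, 26 WT peaks had no het peak (29.9%, background 36.9%) and 37 mutant peaks none (36.6%, background 41.3%). Of the 66 het peaks 9 had no WT peak (13.6%, background 13.3%) and 9 no mutant peak (13.6%, background 10.7%). Since het was aligned and called with other settings, genotype and processing cannot be told apart in these shares.

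The unshared peaks of Chd7 were intronic in all 5 cases in WT and in 12 of 13 in mutant, where the other lay beside the first exon. Of the 13, 5 were in intron 1, 3 in intron 2 and 2 in intron 3. Among all Chd7 peaks, shared or not, 23 of 29 in WT and 30 of 37 in mutant were intronic. Of these 37, 15 were in intron 1, 6 in intron 2 and 4 in intron 3. By -log10 q the strongest WT peak without a mutant peak had a pileup of 19 and was also called in het, and the strongest mutant peak without a WT peak had a pileup of 23 and was not called in het. By pileup, 2 other mutant peaks without a WT peak stood higher, 8691053 to 8691162 with 26 and 8749038 to 8749139 with 24. Their windows are shown with that of the intron 6 peak, the Chd7 peak that fell furthest.
Chd7 intron 1, WT and het lists (chr4:8723121-8723221, plus strand): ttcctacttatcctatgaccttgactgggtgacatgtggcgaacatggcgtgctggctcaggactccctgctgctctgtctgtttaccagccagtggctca
Chd7 intron 1, mutant list (chr4:8737858-8737958, plus strand): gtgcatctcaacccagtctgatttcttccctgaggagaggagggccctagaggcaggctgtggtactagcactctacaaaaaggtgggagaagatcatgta
Chd7 intron 6, all lists (chr4:8811212-8811312, plus strand): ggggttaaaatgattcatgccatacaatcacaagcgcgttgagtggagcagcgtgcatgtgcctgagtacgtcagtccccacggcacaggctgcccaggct
None of these 3 windows held a match to the motifs above. Joined at a distance of 300 bp, peaks of Chd7 in the 3 lists formed 38 regions, of which 14 had peaks of all lists, 6 of WT and mutant, 9 of mutant alone and 4 of WT alone. Chd9 formed 19 regions, of which 14 had peaks of all lists. Over the family 54 of 101 regions had peaks of all 3 lists, 13 of WT and mutant, 16 of mutant alone, 8 of WT alone and 6 of het alone. Of 190582 regions joined in the same way over the genome, 45.7% had peaks of all 3 lists, 12.7% of WT and mutant, 20.1% of mutant alone, 13.3% of WT alone and 3.52% of het alone.

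Repeat content was then examined. The Chd1 and Chd4 intron peaks of highest -log10 q and the Chd9 peak that fell lie largely in sequence that the reference soft-masks as repeat, at 63.4%, 96.0% and 66.3% of the 101 bases around the summit. They are shown as examples of named peaks that lie largely in repeats. In their most alike stretch of 40 bases Chd1 and Chd4 had 29 identical bases, Chd1 and Chd9 27 and Chd4 and Chd9 24. The repeat-masked Chd2 peak at 73507015 to 73507104 had 27 with Chd4.
Chd1 intron 2 (chr17:15715380-15715480, plus strand): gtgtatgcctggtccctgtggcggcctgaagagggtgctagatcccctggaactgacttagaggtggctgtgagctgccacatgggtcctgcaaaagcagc
Chd4 intron 22 (chr6:125111088-125111188, plus strand): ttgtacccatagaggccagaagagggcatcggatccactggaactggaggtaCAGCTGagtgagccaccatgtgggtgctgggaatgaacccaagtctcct
Chd9 intron 3 (chr8:90934906-90935006, plus strand): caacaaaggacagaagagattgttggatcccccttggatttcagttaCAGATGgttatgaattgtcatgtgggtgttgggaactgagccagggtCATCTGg
Windows masked for at least 50% of their bases made up 6 of 58 WT peaks of the paralogues (10.3%) and 0 of 29 in Chd7 (a count of 0 allows a share of up to 10.3%), against 6.88% of all WT peaks. Of the 11 unshared WT peaks of the family 0 were among them, which allows a share of up to 27.3%, and of all unshared WT peaks 16.9% were. WT and mutant tags differed in length, 107 against 76 bases, and the part of this difference in heights over repeats was not tested.

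A further measure came from the background. Pileup and fold enrichment together give the background that the peak caller set at each summit from tags in the surrounding 10 kb, with the genome-wide level as the floor, and this is expressed as a ratio to the genome-wide level. Peaks of Chd7 lay in a strongly tagged surrounding. The median background was 3.14 in WT (range 1.58 to 5.65), 3.86 in het and 3.51 in mutant, against 1.35, 1.52 and 1.34 over all peaks. In WT, Chd4 had 4.29 and Chd3 3.38, above Chd7, while Chd1 had 2.93, Chd6 1.60 and Chd9 1.56. The highest Chd7 value was around intron 23, with 5.65 in WT and 6.30 in mutant, and not at the first exon. A pileup of the same height therefore gave a lower fold enrichment in Chd7, where the median was 4.06, than in Chd9, where it was 6.65.

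**Figure D5:**
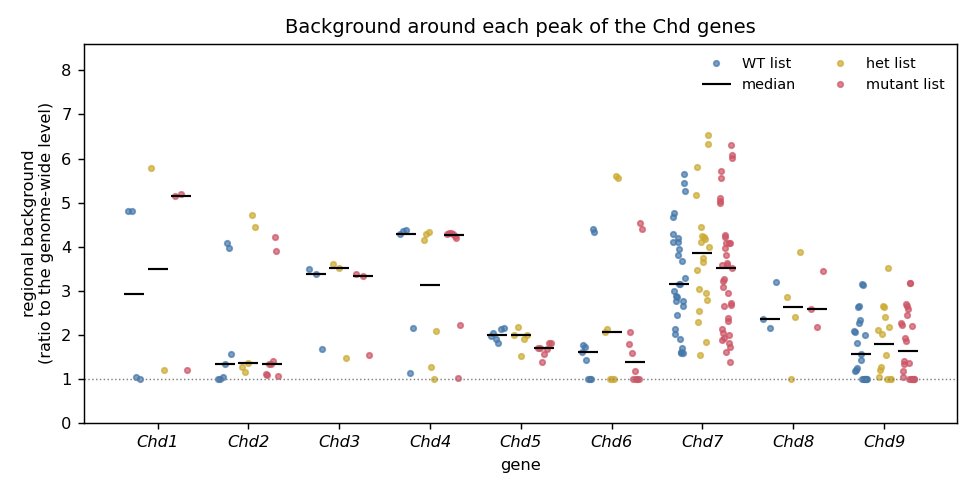
Background around each peak (points), as a ratio to the genome-wide level (vertical axis, 1 is the genome-wide level and the lowest possible value), by Chd gene (horizontal axis) and list, with medians as lines. All Chd7 peaks lie above 1, with medians of 3.14 in WT, 3.86 in het and 3.51 in mutant.

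Between WT and mutant this background was higher in mutant around most of Chd7. The median ratio over the 24 shared peaks was 1.12 (range 0.961 to 1.22), against 1.02 (quartiles 0.954 and 1.09) over 95300 shared peaks above the floor. At 12 of the 24 peaks the counting interval lay above 1 and at 0 below, and of the 95300 peaks 9.72% had an interval above 1 and 4.86% below. These shares are at unlike tag numbers, and the interval narrows as the tag number grows. The median WT background was 3.14 at Chd7 peaks against 1.35 over all peaks. No set of peaks with like tag numbers was compared. The highest value was beside the first exon, with 764 tags in WT and 945 in mutant (ratio 1.22, 1.11 to 1.35). Around coding exon 2 the ratio was 0.961 (0.866 to 1.07), the lowest in the gene, and at the internal start beside it 0.991 (0.896 to 1.10). Downstream it was 1.14 (1.02 to 1.28) at the first intron 2 peak, 1.01 (0.864 to 1.19) in intron 6, 0.984 (0.869 to 1.11) at coding exon 16 and 1.12 (1.03 to 1.21) at intron 23. Windows of neighbouring peaks overlap, so these values are not independent. Other genes of the family also had medians above 1. The median ratio was 1.11 in Chd6 (6 peaks, range 1.02 to 1.19), 1.08 in Chd1, 1.08 in Chd8 and 1.06 in Chd9. Among the paralogues the interval lay above 1 at 1 of 43 peaks, in Chd6, and below 1 at 3, of which 2 were in Chd5 and 1 upstream of Chd2. Chd5 was lower in mutant around all 5 of its shared peaks, with ratios of 0.838 to 0.888. No value of a single library stands behind these ratios, and genotype and library preparation cannot be told apart in them.

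For context, the family was set beside the partners of its subfamily II members and beside other Snf2-type ATPases. All 12 NuRD subunits examined, among them the deacetylases Hdac1 and Hdac2, held a start-site peak. Of their 38 WT peaks 3 had no mutant peak (7.89%), and 35 shared peaks had a median log2 ratio of 0.14, with 2 at least 1.5 times higher and 0 at least 1.5 times lower. All 16 other Snf2-type ATPases, among them Smarca4 and Ino80, held a start-site peak. Of their 59 WT peaks 9 had no mutant peak (15.3%), and 50 shared peaks had a median of 0.14, with 5 higher and 2 lower by that factor. Over all WT peaks 22.8% had no mutant peak. All shared peaks had a median of 0.08, with 8.37% higher and 3.61% lower by that factor. No start-site peak of either list passed 1.5 times in either direction. Shared start-site peaks over the genome had log2 ratio quartiles of -0.06 and 0.20, and their share past 1.5 times was not counted. Smarca1, Atrx and Rbbp7 are X-linked, and the WT and mutant lists held 36 and 25 peaks on the Y chromosome, so the share of males in the pools was not known to be equal.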

How the data were processed

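The data were 8 ATAC-seq libraries of P7 GNPs. Per the file headers, the authors called narrow peaks with MACS2 2.1.0.20150731 on the pooled libraries of each genotype, at a q-value cutoff of 0.05, with 50394313 tags for WT (3 libraries), 51030229 for mutant (3) and 30923002 for het (2) after filtering. The genome size was set to 2700000000 bp, the tool's human default, and tags were extended by 90 (WT), 88 (mutant) and 200 (het) bases. The headers give a shift of -100 bases for het and none (0) for WT and mutant, while the study's methods give the het settings for all lists, and summits and pileups depend on these settings. WT and mutant came from a folder named for STAR and het from one named for Bowtie, while the study's methods give Bowtie. The submitters' processing notes list Bowtie 1.0.0, STAR 2.5.0b, Picard 1.139 and Trim Galore 0.4.1, in no stated order.

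The deposited signal is the pileup at the summit, not scaled to depth. The deposited fold enrichment is a ratio to local background with a pseudocount of 1, and the deposited -log10 q depends on depth. Coordinates are mm10, counted from 1. Genes came from GENCODE M21 and sequences from GRCm38.p6. An overlap of 1 bp with any peak of the other list made a peak shared. Its partner was the overlapping mutant peak of highest pileup, and heights were divided by the tags of the list. Each height is that at the summit in its own list, and summits of partners can differ in position. A change was called at 1.5 times. Het heights were made with another extension and were not compared as ratios. Shares carry Wilson 95% intervals, and height ratios exact 95% intervals conditional on their sum. Both cover counting error only, since each genotype is a single list called on pooled libraries. PCR copies are not independent molecules, and the study states that duplicated reads were removed. The rule for named peaks took, per gene, the start-site peak, the strongest peaks away from start sites (over 1 kb) and the strongest unshared peaks, and over the family the 5 largest rises and falls among WT peaks with a -log10 q of at least 5. Other peaks named were chosen after their values were seen. The regional background is (pileup + 1) / fold enrichment - 1, divided by the genome-wide level. This measure, the repeat share, ATGCAAAT and the likeness of windows were added after the data were seen. Proteins were aligned with BLOSUM62 in biopython 1.88. Overlap and interval code was tested on simulated data. Python 3.11.15, pandas 2.3.3 and scipy 1.17.1 were used. The members and lists were chosen with earlier results of these data known. Alternatives were the overlap rule, a stricter -log10 q, the gene body alone, peaks at other genes left out, fold enrichment in place of height and the partner rule.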

Additional observations from a re-analysis of the deposited data

How the results depend on the processing

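No paired analysis was possible because each genotype is a single list called on pooled libraries, and for the same reason no library could be left out in turn. Of 26 alternatives, 21 left the share or median of the family or of Chd7 within the error of the reported value and 5 moved it. With 50% reciprocal overlap in place of 1 bp, the share of family WT peaks without a mutant peak was 25.3% and of mutant peaks without a WT peak 35.6%, by construction of the stricter rule. No share over all peaks was taken under this rule, so these values cannot be set against the genome-wide shares at 1 bp. Among peaks with a -log10 q of at least 5, without the weak peaks, the family shares were 6.45% and 7.81%. That of Chd7 mutant peaks was 10.5%. Over all peaks the shares were then 5.78% and 11.2%. With fold enrichment in place of height the median log2 ratio of Chd7 was -0.0011 in place of 0.06. Pileups of 8 to 94 at the WT summits of the family limit every height ratio.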
